A study of Mus musculus with 36 samples.

Results

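The circRNAs described here come from 5 host genes, *Epha3*, *Epha4*, *Epha5*, *Epha6* and *Epha7*, which encode receptors of the ephrin A group. A circRNA was counted as a member when both of its ends lay inside one of these genes on the strand of that gene (GENCODE M21, GRCm38). Of the 33259 circRNAs listed in the hippocampus and the frontal cortex, 66 met this rule, with 1294 of 793237 circular reads. All 5 genes had at least 1 circle, and no member lay inside a second annotated gene on its strand.

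Eph receptors are the largest family of receptor tyrosine kinases. EphA receptors bind mainly ephrin A ligands, which a lipid anchor holds on the surface of neighbouring cells, and contact between the cells signals in both directions. In the developing brain this signalling guides axons and sets up topographic maps, and in the adult hippocampus EphA4 on neurons and ephrins on astrocytes act on the shape of dendritic spines.

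The study followed circRNAs in total RNA of whole hippocampi and frontal lobes of adult male C57BL/6 mice of the N substrain over the light-dark cycle. Untreated mice were sampled in the light phase (ZT1, ZT5, ZT9) and in the dark phase (ZT13, ZT17, ZT21), with 3 biological replicates for each of the 12 groups of tissue and time, or 36 samples. The measured value was the number of circular reads, which cross the head-to-tail junction of a circle. The levels below are circular reads of a gene or circle per 10000 circular reads of the sample, with SD over samples.

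Depth differed between the samples. The 18 hippocampus samples had between 6754 and 73252 circular reads, with a median of 21924, and the 18 frontal cortex samples between 8107 and 34803, with a median of 20301. In the hippocampus 2 libraries stood apart, ZT1 replicate 3 with 73252 reads and ZT13 replicate 1 with 6754 reads. The smallest count listed above 0 was 2, so that a single read of a circle in a sample does not appear, and a value of 0 is not proof of absence. At a low depth more circles are lost in this way.

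*Epha5* and *Epha6* had the most circles. *Epha5* gave 25 circles, of which 21 occurred in the hippocampus, 13 in the frontal cortex and 9 in both. *Epha6* gave 23 circles, 22 of them hippocampal and 7 cortical, with 6 in both. *Epha7* gave 7 circles (6 and 3, with 2 in both), *Epha3* gave 6 (5 and 4, with 3 in both) and *Epha4* gave 5 (5 and 1, with 1 in both). By the number of circles, *Epha5* was number 117 and *Epha6* number 139 of the 6445 host genes in the series. These counts rest on rare circles, since 35 of the 66 (53.0%) were found in 1 sample, against 57.3% of the 29135 circRNAs with a host gene. With all samples thinned to 6754 reads, the expected number in the hippocampus was 7.18 for *Epha5* and 6.26 for *Epha6*, against 5.29 and 2.04 for the frontal cortex.

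Circles were found at every time point in both tissues for each of the genes except *Epha4*. In the order ZT1, ZT5, ZT9, ZT13, ZT17 and ZT21, *Epha5* had 12, 7, 10, 7, 8 and 8 circles in the hippocampus, against 6, 3, 3, 4, 10 and 6 in the cortex samples. In the same order, *Epha6* had 13, 7, 3, 5, 9 and 3 circles in the hippocampus, against 1, 2, 3, 2, 3 and 4 in the frontal cortex. The high numbers at ZT1 in the hippocampus include the deepest library, and without it the hippocampus as a whole had 17 circles of *Epha5* and 18 of *Epha6*. *Epha7* had 5, 4, 2, 4, 4 and 2 circles in the hippocampus, against 2, 2, 1, 2, 2 and 2 in the frontal cortex. *Epha3* had 2, 2, 3, 1, 2 and 4 circles in the hippocampus, against 2, 1, 2, 2, 1 and 1 in the frontal cortex. *Epha4* had 2, 2, 1, 1, 1 and 2 circles in the hippocampus. In the frontal cortex it had 1 circle at ZT13 and no circle at ZT1, ZT5, ZT9, ZT17 or ZT21.

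The first question was whether the circular RNA of these genes differed between the tissues. *Epha6* and *Epha7* were higher in the hippocampus. *Epha6*, a receptor gene of 952 kb on chromosome 16 (59653483 to 60605531, minus strand), gave 267 hippocampal and 56 cortical circular reads. Its level in the hippocampus was between 1.56 and 13.3 per 10000, with a median of 6.57 and a mean of 6.33 ± 2.54 (SD, n = 18). The frontal cortex samples lay between 0 and 5.05, with a median of 0.843 and a mean of 1.49 ± 1.71 (SD, n = 18), and 7 samples had no read. The groups overlapped, but 14 of the 18 hippocampus samples were above the highest frontal cortex sample, and the mean was higher in the hippocampus at 6 of 6 time points. The ratio of the pooled shares, each over all circular reads of the tissue, was 4.003, with a 95% exact interval of 2.99 to 5.44. This interval and those below cover counting error only. In the edgeR fit of all 36 samples the log2 fold change was 2.25 (standard error 0.36, adjusted p = 3.31e-06).

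*Epha7*, on chromosome 4 (28813131 to 28967499, plus strand), encodes a receptor known for repelling growing axons. It gave 182 hippocampal and 43 cortical circular reads. The level in the hippocampus ranged from 0 to 6.57 per 10000, with a median of 3.79 and a mean of 3.96 ± 1.79 (SD, n = 18). The frontal cortex samples ranged from 0 to 3.13, with a median of 0.921 and a mean of 1.11 ± 1.13 (SD, n = 18). The single hippocampus sample without a read was the shallow ZT13 replicate 1, while 7 frontal cortex samples had none, and 13 of 18 hippocampus samples were above every frontal cortex sample. The ratio of the pooled shares was 3.55 (95% exact interval 2.54 to 5.08), and the log2 fold change was 1.81 (standard error 0.40, adjusted p = 0.000435). Again the hippocampus mean was higher at 6 of 6 time points.

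*Epha5*, on chromosome 5 (84054761 to 84417382, minus strand), had the most circular reads of the 5 genes, 385 hippocampal and 237 cortical ones. It was number 233 of the 6445 host genes by circular reads. Its level was between 0 and 13.8 per 10000 in the hippocampus, with a median of 9.17 and a mean of 8.55 ± 3.50 (SD, n = 18). The frontal cortex samples lay between 3.60 and 11.9, with a median of 6.15 and a mean of 6.68 ± 2.34 (SD, n = 18). The tissues overlapped over most of this range, and the only sample without a read was hippocampus ZT13 replicate 1. The ratio of the pooled shares was 1.36 (95% exact interval 1.16 to 1.61). The log2 fold change of 0.40 (standard error 0.18) did not pass the threshold of 0.05 (adjusted p = 0.0845). This value depended on single libraries. Without hippocampus ZT13 replicate 2 it was 0.11 (adjusted p = 0.716), and without ZT13 replicate 1 it was 0.45 (adjusted p = 0.0229). It also passed without hippocampus ZT13 replicate 3 (0.46), without frontal cortex ZT9 replicate 3, and without both hippocampus libraries of extreme depth (0.48, adjusted p = 0.0218).

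*Epha3* and *Epha4* did not pass the filter of edgeR on low counts. *Epha3*, on chromosome 16 (63543534 to 63864175, minus strand), gave 61 circular reads in 14 hippocampus samples and 34 in 12 frontal cortex samples. Its level was 1.58 ± 1.23 per 10000 in the hippocampus, with a range of 0 to 4.44 and a median of 1.44. The frontal cortex had 0.981 ± 1.04, with a range of 0 to 4.21 and a median of 0.946 (SD, n = 18 each). The ratio of the pooled shares was 1.51, and its 95% interval of 0.975 to 2.36 includes a ratio of 1. In a fit without the filter the log2 fold change was 0.66 (standard error 0.54, adjusted p = 1.00).

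*Epha4*, on chromosome 1 (77367185 to 77515088, minus strand), is the member best known from the adult hippocampus, where its protein binds ephrins on astrocytes. Here it gave the fewest reads, 27 in 10 hippocampus samples and 2 in 1 frontal cortex sample, ZT13 replicate 3. The level in the hippocampus was between 0 and 2.43 per 10000, with a median of 0.585 and a mean of 0.622 ± 0.730 (SD, n = 18), so that the SD exceeded the mean. The ratio of the pooled shares was 11.3, with a wide 95% exact interval of 2.85 to 98.4. Without the filter the log2 fold change was 2.94 (standard error 0.84, adjusted p = 0.0178), a fitted value that depends on the prior count because 5 of the 6 frontal cortex groups had no read.

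In this contrast 31.6% of 778 host genes tested passed in either direction, and 16.5% were higher in the hippocampus. The filter kept 3 of the 5 genes, and 2 of them passed, both higher in the hippocampus. Among the frontal cortex samples alone, *Epha6* and *Epha7* did not reach the filter. They thus entered this test through the tissue where they are high, and the count of 2 is not separate support for a direction. Without the filter 2.20% of 6445 host genes were higher in the hippocampus, and *Epha4*, *Epha6* and *Epha7* were among them. The fitted fold changes of *Epha6* and *Epha7* depend on frontal cortex groups with few reads. Without frontal cortex ZT9 replicate 1 the log2 fold change of *Epha6* was 3.02, and without frontal cortex ZT17 replicate 1 that of *Epha7* was 2.48. In whole tissue, fewer cells of a type and less RNA per cell cannot be told apart.

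**Figure D1:**
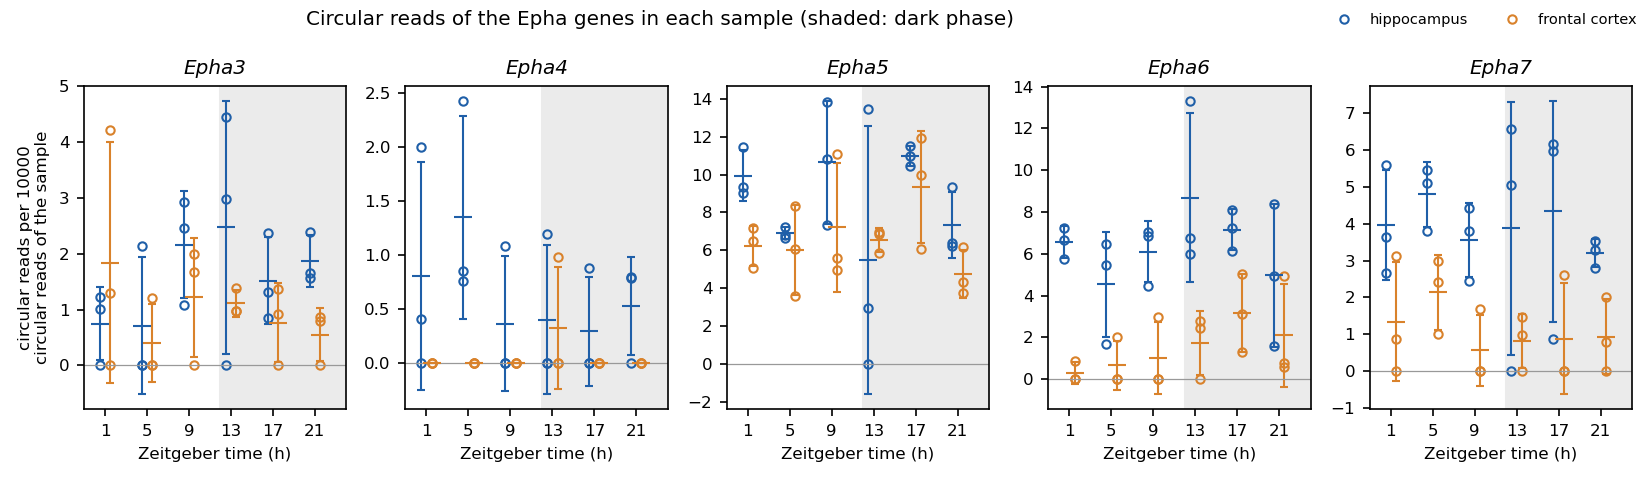
Circular reads per 10000 circular reads of the sample (y axis) against Zeitgeber time in hours (x axis) for the 5 genes, in the hippocampus (blue) and the frontal cortex (orange). Circles are samples, horizontal marks are means and vertical bars are SD (n = 3), the dark phase is shaded, and for *Epha6* the hippocampus mean was above that of the frontal cortex at 6 of 6 time points.

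**Figure D2:**
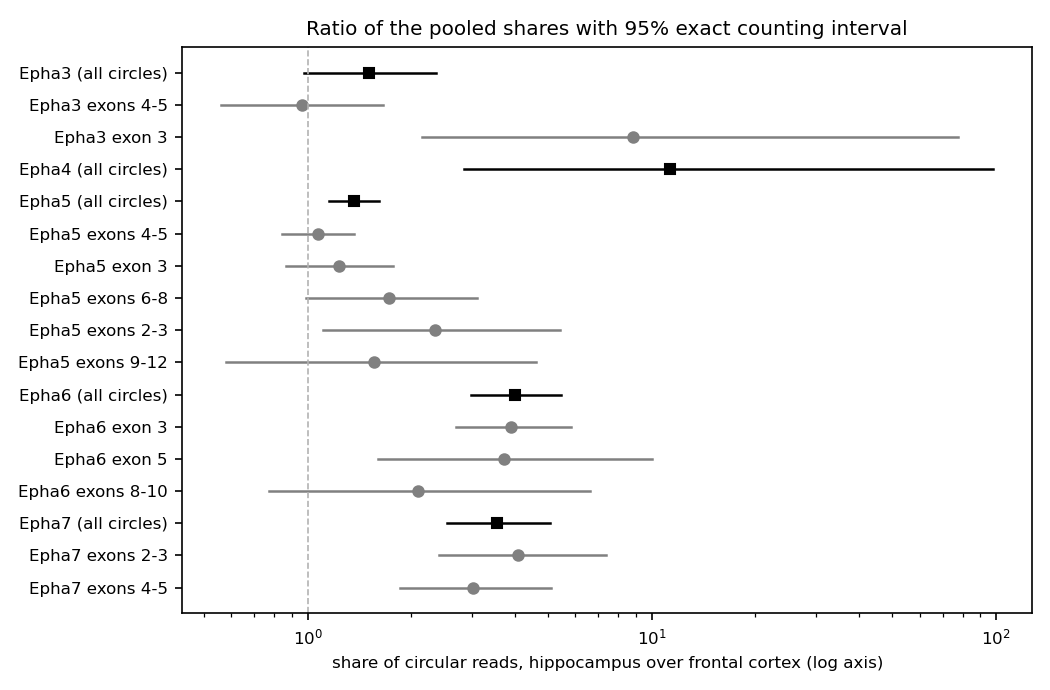
Ratio of the pooled share of circular reads, hippocampus over frontal cortex, on a log axis, for each gene (black squares) and for its circles with at least 20 reads and reads in both tissues (grey dots). Bars are 95% exact intervals for counting error only, and for *Epha6* the ratio was 4.003, while for *Epha5* it was 1.36.

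Markers of cell types and regions were examined beside this difference. The hippocampus list of 14 genes, of which 10 had circles, summed to 44.3 ± 8.61 per 10000 in the hippocampus (28.1 to 63.1) and 15.6 ± 3.90 in the frontal cortex (4.93 to 20.4). Its most abundant host gene was *Zbtb20*, and *Neurod2*, *Lct*, *Spink8* and *Iyd* had no circle. Of 5 genes of this list that were tested, *Prox1* of dentate granule cells (log2 fold change 4.41), *Glis3* (3.58) and *Zbtb20* (1.85) were higher in the hippocampus, *Meis2* was lower (-2.38), and *Zbtb16* did not pass. A list of cortical genes is given in part and its sum is left out, so no reading of the whole list is made. Of its genes, *Tshz2* (1.78) and *Bcl11b* (1.14) were higher in the hippocampus, *Rasgrf2* was lower (-1.10), and *Tle4* did not pass.

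The striatum list of 12 genes, 6 with circles, was at 1.79 ± 1.44 per 10000 in the hippocampus (0 to 4.18) and 4.65 ± 2.12 in the frontal cortex (0.993 to 8.94). *Foxp1* was its most abundant gene, *Rarb* had 2 hippocampal and 67 cortical reads, and *Drd1*, *Drd2*, *Adora2a*, *Sh3rf2* and *Isl1* were among the genes with none. The oligodendrocyte list of 10 genes, 4 with circles, was at 1.95 ± 1.44 and 0.811 ± 0.840, with *Bcas1* the most abundant and *Mog*, *Mag*, *Cnp*, *Pdgfra* and *Sox10* among those at 0. Of the same list, *St18* had 26 reads in 7 hippocampus samples and *Mobp* 9 reads in 4, and both had 0 in the frontal cortex. The choroid plexus list of 8 genes, 3 with circles, was at 1.00 ± 1.34 and 0.612 ± 0.845, with *Enpp2* the most abundant and *Ttr*, *Clic6*, *Otx2*, *Kl* and *Folr1* at 0 (SD, n = 18 each). None of these 3 lists had a gene with enough reads to be tested. The part of these cell types in the differences of *Epha6* and *Epha7* was not tested.

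Between genes, levels were compared per 100 kb of gene length. In the hippocampus *Epha7* had 2.73 circular reads per 10000 and 100 kb and *Epha5* had 2.46, while *Epha6* had 0.650, *Epha3* 0.441 and *Epha4* 0.423. Per length, *Epha5* was first in the frontal cortex with 1.81, followed by *Epha7* with 0.769, *Epha3* with 0.293, *Epha6* with 0.162 and *Epha4* with 0.037. Without the division by length, *Epha6* ranked above *Epha7* in both tissues. Pooled levels per 10000 in the hippocampus were 8.93 (*Epha5*), 6.19 (*Epha6*), 4.22 (*Epha7*), 1.41 (*Epha3*) and 0.626 (*Epha4*). In the frontal cortex they were 6.55, 1.55, 1.19, 0.939 and 0.0552 in the same order. Whether circular reads scale with gene length was not tested.

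The second question was whether these levels changed over the light-dark cycle. No member passed a test over time in either tissue. Levels and fits are relative to the circular reads of each sample, so a change common to all circRNAs would not show. The paper reports such overall changes in both tissues. For *Epha6*, all 6 hippocampus groups ranked above all 6 frontal cortex groups, from 8.68 ± 4.04 per 10000 in the hippocampus at ZT13 to 0.298 ± 0.517 in the frontal cortex at ZT1 (SD, n = 3). *Epha7* had the same split of the tissues, from 4.79 ± 0.880 in the hippocampus at ZT5 to 0.558 ± 0.966 in the frontal cortex at ZT9. The order of *Epha5* mixed the tissues, from 11.0 ± 0.533 in the hippocampus at ZT17 to 4.76 ± 1.28 in the frontal cortex at ZT21. The hippocampus at ZT13 was second to last with 5.49 ± 7.07, where the replicates had 0, 13.5 and 2.99 per 10000. *Epha3* ran from 2.48 ± 2.26 in the hippocampus at ZT13 to 0.401 ± 0.694 in the frontal cortex at ZT5. Its first place rests on few reads, since 2 of the 3 ZT13 samples had any. The highest value there, 4.44 per 10000, came from the shallow replicate 1. *Epha4* ran from 1.35 ± 0.938 in the hippocampus at ZT5 to 0 in 5 frontal cortex groups. For each of the 5 genes, no group differed from its neighbour in the order by more than the SDs of both groups added together.

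Over the 6 time points of the hippocampus 0.146% of 683 host genes passed, or 1 gene (24 at an unadjusted p under 0.05, and 2 genes by DESeq2). *Epha5*, *Epha6* and *Epha7* did not (adjusted p = 0.999 for each). Over the time points of the frontal cortex 0.159% of 628 host genes passed, again 1 gene (19 at an unadjusted p under 0.05, and 1 gene by DESeq2). *Epha5* was the only member with enough reads there, and its adjusted p was 0.997.

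Between the phases no member passed in either tissue. *Epha6* was at 5.73 ± 1.75 per 10000 in the light and 6.93 ± 3.14 in the dark phase (SD, n = 9 each), with a log2 fold change of dark over light of 0.17 (standard error 0.27, interval of 2 standard errors on each side from -0.38 to 0.71). *Epha7* was at 4.11 ± 1.14 and 3.81 ± 2.34, with a log2 fold change of -0.06 (interval -0.76 to 0.64), and *Epha5* at 9.17 ± 2.46 and 7.93 ± 4.38, with -0.13 (interval -0.63 to 0.38). In the frontal cortex *Epha5* was at 6.49 ± 2.20 in the light and 6.88 ± 2.59 in the dark phase, with a log2 fold change of 0.06 (interval -0.42 to 0.55). None of these passed the edgeR test (adjusted p = 0.989 for the 3 genes of the hippocampus and 0.999 for the frontal cortex). Of all host genes tested in the hippocampus, 0% of 683 passed (28 at an unadjusted p under 0.05, 0 by DESeq2), and of those tested in the frontal cortex 0% of 628 (22 at an unadjusted p under 0.05, 0 by DESeq2). Without hippocampus ZT13 replicate 2 the value of *Epha5* in the hippocampus was -0.75. The signs of these differences are not stable, since single libraries reversed those of *Epha6* and *Epha7* in the hippocampus and of *Epha5* in the frontal cortex.

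Cortical reads of *Epha6* occurred in 3 of 9 samples of the light phase and in 8 of 9 of the dark phase, at 0.656 ± 1.11 and 2.33 ± 1.84 per 10000. It had too few reads there for the filter, and without the filter the log2 fold change of 1.64 (standard error 0.75) had an unadjusted p of 0.0279 and an adjusted p of 1.00. The difference between the tissues in the phase contrast was -1.34 for *Epha6* (standard error 0.75, unadjusted p = 0.0823, adjusted p = 0.903), -0.20 for *Epha5* (adjusted p = 0.989) and 0.35 for *Epha7* (adjusted p = 0.989). Single libraries moved these values, that of *Epha6* to -2.87 without frontal cortex ZT9 replicate 1 and to -0.94 without frontal cortex ZT21 replicate 3, and that of *Epha5* to -0.79 without hippocampus ZT13 replicate 2. For *Epha7* it was -0.86 without frontal cortex ZT9 replicate 2 and 1.67 without frontal cortex ZT17 replicate 1. Here 0% of 778 host genes passed by edgeR and 0 by DESeq2, with 39 at an unadjusted p under 0.05 by edgeR. No difference between the tissues in the phase effect was thus detected. *Epha3* was at 1.21 ± 1.11 and 1.95 ± 1.29 in the light and dark phase of the hippocampus and at 1.15 ± 1.40 and 0.810 ± 0.505 in the frontal cortex. *Epha4* was at 0.838 ± 0.884 and 0.406 ± 0.496 in the hippocampus (SD, n = 9 each), and both genes had too few reads to be tested for phase with the filter.

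Most circles began and ended at exon edges, and long introns lay next to them. Lengths of circles in nt are those of the annotated exons, and whether introns inside a circle were removed was not measured. Of the 66 circles, 54 (81.8%) had both ends at annotated exon edges, against 71.9% of all circRNAs with a host gene, and these held 1264 of the 1294 reads. Of these 54, 53 ended at exons of the principal transcript, and 6 of the 53 (11.3%) were a single exon, against 4.0% of all. The neighbouring introns had a median of 54.3 kb before and 24.7 kb after the circle, against 8.39 and 6.64 kb for all circRNAs of host genes that could be placed on a transcript. None of the 53 circles held the first or the last exon. The share of a gene's reads at exon edges that covered exon 3 was 68.2% for *Epha6*, 49.3% for *Epha7*, 29.2% for *Epha5* and 24.2% for *Epha3*. In *Epha4* no circle held exon 3, and exons 6 to 8 were in 81.5% of its reads at exon edges.

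**Figure D3:**
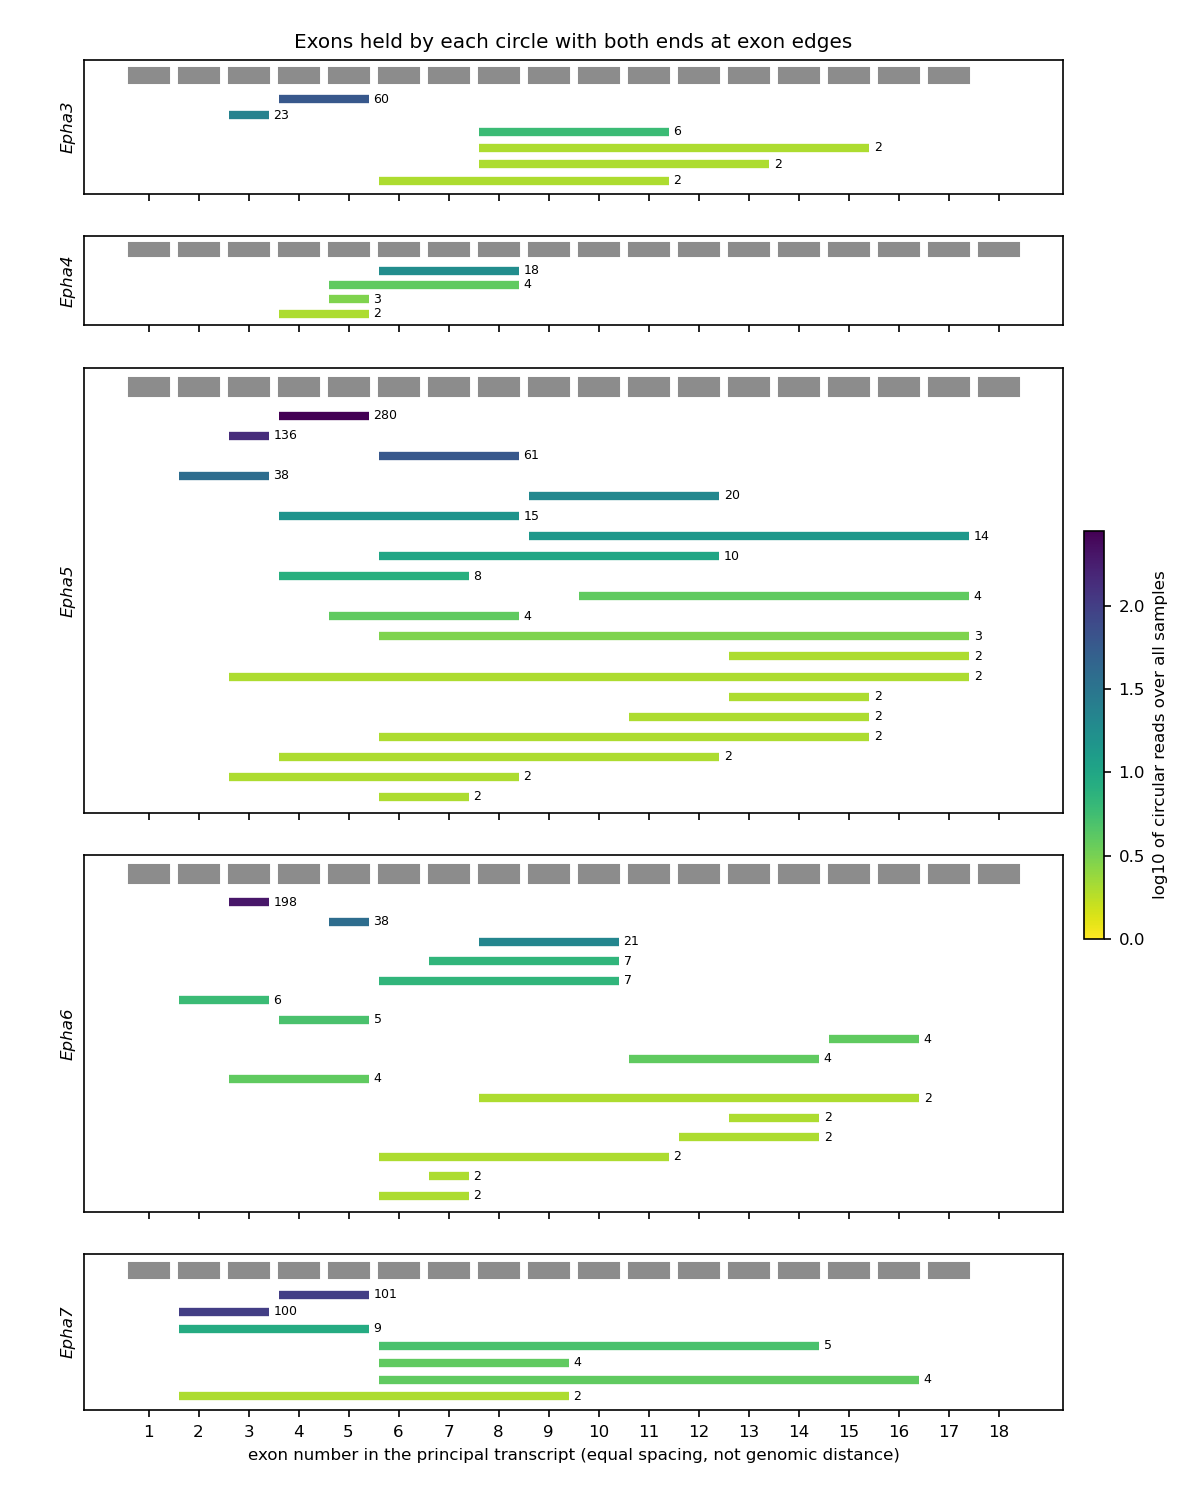
Exons held by each of the 53 circles with ends at exon edges of the principal transcript (x axis, exon number with equal spacing), in a panel for each gene with the exons as grey boxes. Bar colour and the number at its right give the circular reads over the 36 samples, and the highest number was 280 for exons 4 to 5 of *Epha5*.

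The same exons formed circles in several of the genes. Exon 3, which codes for most of the ephrin-binding domain in these receptors, was a circle on its own in *Epha3* (661 nt, 23 reads in 8 samples), *Epha5* (664 nt, 136 reads in 30 samples) and *Epha6* (664 nt, 198 reads in 26 samples). Exons 4 to 5 formed a circle of 492 nt in *Epha3* (60 reads in 21 samples), *Epha5* (280 reads in 34 samples), *Epha7* (101 reads in 23 samples) and *Epha6* (5 reads in 2 samples), and one of 495 nt in *Epha4* (2 reads in 1 sample). Exons 2 to 3 were joined in *Epha5* (729 nt, 38 reads), *Epha6* (729 nt, 6 reads) and *Epha7* (735 nt, 100 reads), and *Epha7* had no circle of exon 3 alone. Exon 5 was a circle on its own in *Epha6* (336 nt, 38 reads) and *Epha4* (339 nt, 3 reads), and exons 6 to 8 formed one in *Epha5* (391 nt, 61 reads) and *Epha4* (397 nt, 18 reads).

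The third most abundant circles of *Epha3*, *Epha6* and *Epha7* had no such counterpart. These held exons 8 to 11 in *Epha3* (483 nt, 6 reads), exons 8 to 10 in *Epha6* (306 nt, 21 reads) and exons 2 to 5 in *Epha7* (1227 nt, 9 reads). In *Epha4*, a circle of exons 5 to 8 (736 nt, 4 reads) was the only one found in both tissues.

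Exons 3, 4 and 5 differed in sequence between the 5 genes. Over the 10 pairs of genes, the identity of aligned bases was between 65.7% and 69.9% for exon 3, between 54.5% and 67.9% for exon 4 and between 56.6% and 63.4% for exon 5. With weaker gap penalties the ranges were 66.7% to 71.0%, 57.1% to 68.6% and 59.2% to 64.0%.

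The junctions are shown because the circular reads were counted at them, and because they let the shared circles be compared base by base. Each line gives the last 30 bases of the last exon in lower case and the first 30 bases of the first exon in capitals, as joined in the circle and read 5′ to 3′ on the strand of the gene from the annotated transcripts of GRCm38. The exon 3 circles lay at chr16:63772910-63773570 (*Epha3*), chr5:84331228-84331891 (*Epha5*) and chr16:60424721-60425384 (*Epha6*), all on the minus strand. The junctions of *Epha5* had 70.0% of bases in common with *Epha3* and with *Epha6*, and those of *Epha3* and *Epha6* had 63.3%.
Epha3 exon 3: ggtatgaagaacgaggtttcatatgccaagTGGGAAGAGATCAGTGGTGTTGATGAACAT
Epha5 exon 3: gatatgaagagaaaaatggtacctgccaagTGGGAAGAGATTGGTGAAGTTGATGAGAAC
Epha6 exon 3: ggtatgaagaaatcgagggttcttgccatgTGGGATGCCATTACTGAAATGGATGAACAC

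The circles of exons 4 to 5 lay at chr16:63652215-63653578 (*Epha3*, minus strand), chr5:84233583-84237554 (*Epha5*, minus strand) and chr4:28870557-28871996 (*Epha7*, plus strand). Their junctions had 61.7% to 68.3% of bases in common.
Epha3 exons 4 to 5: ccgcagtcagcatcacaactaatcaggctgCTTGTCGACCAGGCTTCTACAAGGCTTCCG
Epha5 exons 4 to 5: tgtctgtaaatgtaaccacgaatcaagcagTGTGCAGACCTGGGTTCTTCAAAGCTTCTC
Epha7 exons 4 to 5: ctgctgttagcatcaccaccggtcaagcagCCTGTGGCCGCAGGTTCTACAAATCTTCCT

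The circles of exons 2 to 3 lay at chr5:84331228-84386283 in *Epha5* (minus strand) and at chr4:28817445-28821668 in *Epha7* (plus strand). They begin at a shorter exon upstream of exon 3, and the junctions had 46.7% of bases in common. Of the junctions compared but not shown, those of exon 5 alone (*Epha4* and *Epha6*) had 61.7% in common and those of exons 6 to 8 (*Epha4* and *Epha5*) had 41.7%, the lowest of the pairs compared.
Epha5 exons 2 to 3: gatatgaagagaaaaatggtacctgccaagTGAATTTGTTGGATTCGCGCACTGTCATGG
Epha7 exons 2 to 3: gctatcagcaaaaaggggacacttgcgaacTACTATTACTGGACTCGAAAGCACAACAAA

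Single circles were tested between the tissues when found in at least 2 replicates of 1 group of tissue and time. The exon 3 circle of *Epha6* was found in 18 of 18 hippocampus samples, with 163 reads and a level of 1.56 to 7.40 per 10000 (median 3.68). It was also found in 8 of 18 frontal cortex samples, with 35 reads and a level of 0 to 3.72 (median 0). Of the hippocampus samples 9 of 18 were above every frontal cortex sample. The ratio of the pooled shares was 3.91 (95% exact interval 2.70 to 5.81) and the log2 fold change was 2.75 (standard error 0.45, adjusted p = 1.78e-05). It was 3.42 without frontal cortex ZT21 replicate 3, and 1.95 in a fit with 2 tissue groups in place of 12, chosen after seeing that several frontal cortex groups had no read.

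The circle of exons 4 to 5 of *Epha5* was found in 17 samples of each tissue. Its level was between 0 and 6.14 per 10000 in the hippocampus (median 3.27, 157 reads) and between 0 and 7.40 in the frontal cortex (median 3.23, 123 reads), and the tissues overlapped throughout. The log2 fold change was 0.17 (standard error 0.25, interval -0.33 to 0.67, adjusted p = 0.649). These were the 2 member circles with enough reads for the filter, and 1 of them passed. That circle, exon 3 of *Epha6*, did not reach the filter among the frontal cortex samples alone. It entered the test through the hippocampus. Over all single circRNAs, 30.5% of 705 tested passed in either direction and 17% were higher in the hippocampus.

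Without the filter on low counts, but still with the rule of at least 2 replicates, the circles of exons 2 to 3 (log2 fold change 2.32, adjusted p = 0.00348) and of exons 4 to 5 of *Epha7* (1.87, adjusted p = 0.0216) were higher in the hippocampus, as was exon 3 of *Epha6*, against 2.97% of 6656 circRNAs. The former had 83 hippocampal and 17 cortical reads, the latter 79 and 22. In *Epha5*, exon 3 alone (81 and 55 reads, ratio of shares 1.24, interval 0.867 to 1.78) and exons 6 to 8 (41 and 20 reads, 1.72, interval 0.986 to 3.10) had intervals that include a ratio of 1. Exons 2 to 3 of *Epha5* had 28 and 10 reads (2.35, interval 1.11 to 5.43) but did not pass without the filter (log2 fold change 1.79, adjusted p = 0.206), and neither did exon 3 alone (0.41, adjusted p = 1.00). In *Epha3* the circle of exons 4 to 5 had 32 and 28 reads, a ratio of 0.960 (interval 0.560 to 1.65), while exon 3 alone had 21 reads in 7 hippocampus samples and 2 reads in 1 frontal cortex sample, a ratio of 8.82 (interval 2.16 to 77.6). The circle of exons 6 to 8 of *Epha4* had 18 reads in 8 hippocampus samples and none in the frontal cortex.

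Single circles did not pass a test over time. In the hippocampus 0% of 586 circRNAs passed over the 6 time points by edgeR and 0 by DESeq2, with 20 at an unadjusted p under 0.05 by edgeR, and exon 3 of *Epha6* and exons 4 to 5 of *Epha5* had an adjusted p of 0.998. Over the time points of the frontal cortex 0.193% of 519 circRNAs passed, or 1 circRNA, with 14 at an unadjusted p under 0.05 and 0 by DESeq2. Exons 4 to 5 of *Epha5* did not pass (adjusted p = 0.993). Between the phases 0% of 586 hippocampal circRNAs passed (28 at an unadjusted p under 0.05, and 1 by DESeq2) and 0% of 519 cortical ones (18 at an unadjusted p under 0.05, and 0 by DESeq2). The log2 fold change of dark over light in the hippocampus was 0.13 for exon 3 of *Epha6* (interval -0.41 to 0.66) and 0.03 for exons 4 to 5 of *Epha5* (interval -0.56 to 0.62), and in the frontal cortex it was -0.28 for the latter (interval -1.09 to 0.53). Exon 3 of *Epha6* was found in 2 of 9 frontal cortex samples of the light phase and 6 of 9 of the dark phase. In an edgeR fit without the filter, this circle did not pass, with a log2 value of dark over light of 2.84 (standard error 1.05) from 4 reads in the light and 31 in the dark phase, an unadjusted p of 0.00659 and an adjusted p of 0.638.

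The other genes of the pathway formed a list of 52. Of 9 further Eph receptors, 4 had circles, among them *Ephb2* with 104 hippocampal and 65 cortical reads, while *Epha1*, *Epha2*, *Epha8*, *Ephb3* and *Ephb4* had none. Of 8 ephrins, the ligands, 4 had circles. *Efnb2* had 69 hippocampal and 103 cortical reads, and *Efna5*, which binds several EphA receptors, had 2 and 37. No further receptor and no ephrin had enough reads to be tested between the tissues.

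Of 35 signalling partners 27 had circles and 7 were tested. The scaffold gene *Dlg1* was lower in the hippocampus (log2 fold change -0.76, standard error 0.13, adjusted p = 1.38e-05), and 0 were higher. Of the 778 host genes tested, 118 were lower and 128 higher. The median over the 7 was -0.17, against 0.03 over the 778 host genes tested. With the most reads, *Anks1b*, a scaffold of the family that binds Eph receptors, had a log2 fold change of -0.17 (adjusted p = 0.11) and *Ptk2*, the focal adhesion kinase, -0.23 (adjusted p = 0.0797). *Sipa1l1*, a regulator of Rap at spines (-0.24, adjusted p = 0.174), and *Grip1*, a scaffold that binds ephrin B (0.20, adjusted p = 0.368), did not pass. Over time and between the phases, 0 of the 7 partners tested for the hippocampus passed, and 0 of the 6 tested for the frontal cortex.

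Host genes with a similar pattern were found by Pearson's r of log2 CPM over the 36 samples among 777 other host genes, as a description without a test. For *Epha6*, *Itga8* was among the closest (r = 0.758, with 0.090 within the hippocampus and 0.561 within the frontal cortex). For *Epha7* the closest were *Prox1* (0.70, with 0.781 for the hippocampus samples and -0.007 for the cortex samples) and *Dennd1b* (0.667, with 0.675 and 0.296). For *Epha5* they were *Atad2b* (0.737, with 0.885 and 0.042) and *Dlgap1* (0.724, with 0.871 and -0.478). The samples share the tissue difference and the depth of the library, and the values within the hippocampus include the shallow ZT13 replicate 1, in which *Epha5* and *Epha7* had no read.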

How the data were processed

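Total RNA was sequenced after depletion of ribosomal RNA. Counts of reads across each head-to-tail junction, not normalized, were deposited for every sample. For these, the authors had mapped with BWA to GRCm38 and run CIRI2 with its defaults. From the hippocampus data, 1 column was not used, which no label describes and whose name is that of ZT1 replicate 3 with a letter added. Reads were summed per host gene (29135 circRNAs), and single circRNAs were tested when found in at least 2 replicates of 1 group. Tests used edgeR 4.0.16 in R 4.3.3 (TMM, filterByExpr with a minimum count of 10 and total of 15, quasi-likelihood test, Benjamini-Hochberg adjustment over all features, threshold 0.05), without a replicate block. The fits were also run on simulated data with a fixed spread. The share of changes found there is not given, so it does not tell how small a change the tests could miss. Alternatives were DESeq2 1.42.0 (size factors from positive counts), its size factors in edgeR, total reads only, no filter, replicate blocks, 2 tissue groups, other sums per gene and leaving out samples. Linear counts were not used here. Thinned numbers of circles are expected values (hypergeometric, at least 2 reads). Ratios have exact binomial intervals. Standard errors of edgeR values were computed as the absolute log2 fold change over the square root of the F statistic. They and the intervals of 2 standard errors are thus approximate. Exons were aligned with a gap opening of -8 and extension of -1, chosen after seeing values. Python 3.11.15 was used. The text names the 5 genes, per gene the 3 circles with most reads, circles tested or found in 30 or more samples, pathway genes past the threshold or among the 5 with most reads, and of the 2 most similar host genes those that can be given. Some marker results, among them the sum of the cortical list, were left out. Other circles and genes named were chosen after their values were seen or to complete a list. Members and lists were chosen with earlier results of these data known.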

Additional observations from a re-analysis of the deposited data

Results flagged for a closer look

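Within each tissue and phase, 9 samples, the sample at either end was compared with its nearest neighbour for the 5 genes and for the total of circular reads, in 24 groups. A sample was taken to stand apart when its gap to the nearest exceeded 0.493 of the whole range, and 5 groups held such a sample. For normally distributed values chance gives this in about 1 in 20 groups. The gene levels hold many values of 0, so that rate need not apply to them.

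Both extreme libraries of the hippocampus were among them. ZT1 replicate 3 had 73252 circular reads, with 29951 in the next of the light phase, and ZT13 replicate 1 had 6754, with 16740 in the next of the dark phase.

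Frontal cortex ZT1 replicate 2 had 4.21 circular reads of *Epha3* per 10000, with 1.99 in the next sample, and this rests on 5 reads. Frontal cortex ZT13 replicate 3 had 0.977 for *Epha4*, from 2 reads, while the other samples of the dark phase had none. Its gap was thus the whole range, whatever its value. Hippocampus ZT5 replicate 2 had 1.71 for *Epha6*, from 4 reads, with 4.44 in the next sample of the light phase, and its gap of 0.494 of the range was just above the limit.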

How the results depend on the processing

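*Epha6* and *Epha7* stayed higher in the hippocampus and past the threshold in 11 of 11 other settings and in 36 of 36 fits without 1 sample. The log2 fold change of *Epha6* was between 1.94 and 2.39 over the settings and between 2.15 and 3.02 without 1 sample, and that of *Epha7* between 1.72 and 1.98 and between 1.71 and 2.48. The lowest over the settings came from the fit with 2 tissue groups, chosen after seeing the data. *Epha5* passed in 1 of 11 settings and in 3 of 36 fits without 1 sample. *Dlg1* passed in all of these, *Anks1b* passed with DESeq2 (adjusted p = 0.0429, range over the settings 0.0429 to 1.00), and *Ptk2* with DESeq2 (0.0481, range 0.0481 to 0.946) and in 1 of 36 fits without 1 sample.

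Counts of calls over time were small and changed. For time in the hippocampus the 1 host gene became 9 without a filter, 2 with DESeq2, and 0 with the replicate block, without both extreme libraries, or with circRNAs at exon edges. For time in the frontal cortex the 1 host gene became 8 without a filter, and 0 with the replicate block, with circRNAs in at least 2 replicates, or at exon edges. For phase in the hippocampus the 0 became 2 without a filter, and 1 with totals only or circRNAs in at least 2 replicates, and for tissue by phase it became 2 without a filter. For single circRNAs, always with the rule of at least 2 replicates, no filter gave 344 in place of 215 between the tissues, 14 and 12 over time in hippocampus and cortex, and 4 for phase in the hippocampus. DESeq2 gave 0 over time in the frontal cortex and 1 for phase in the hippocampus, where totals only also gave 1. Without 1 sample, the counts were 0 to 2 over time in either tissue, 0 to 1 for phase in the hippocampus, and for single circRNAs 0 to 1 over time and 0 to 1 for phase in the hippocampus. The cause was not tested. A fit without the filter gave no usable value where groups of both tissues had no read.

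No pairing of the samples by replicate number was seen, but a pairing is not excluded. The labels do not say whether equal numbers mark the same mouse, and with few reads per gene a shared animal could go unseen. Over 18 pairs of the same time point and number the deviations in both tissues had a mean r of -0.028 (-0.112 to 0.064), with 0 over 0.1. With the replicate number as a block, 237 host genes passed between the tissues, and 204 with time point and number as a pair, and 205 and 166 single circRNAs.

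Some values that did not pass changed sign. The phase difference in the hippocampus was 0.21 for *Epha7* without both extreme libraries and -0.060 for exons 4 to 5 of *Epha5* without a filter, and in the frontal cortex it was -0.0078 for *Epha5* with circRNAs in at least 2 replicates. Without 1 sample it was -0.078 to 0.32 for *Epha6*, -0.19 to 0.086 for *Epha7*, -0.062 to 0.28 for exon 3 of *Epha6* and -0.27 to 0.15 for exons 4 to 5 of *Epha5* in the hippocampus. In the frontal cortex it was -0.030 to 0.14 for *Epha5* and -0.42 to 0.021 for its exons 4 to 5, and the difference between the tissues in phase was -0.86 to 1.67 for *Epha7*. The cause was not tested.

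Numbers of circles depend on depth and on the rule. Found in at least 2 replicates of a time point were (hippocampus first, then frontal cortex) 2 and 1 circles of *Epha3*, 1 and 0 of *Epha4*, 7 and 4 of *Epha5*, 4 and 1 of *Epha6*, and 2 and 2 of *Epha7*. Thinned to 6754 reads, the expected numbers were 2.11 and 1.48, 1.05 and 0.11, 7.18 and 5.29, 6.26 and 2.04, and 2.67 and 1.92 in the same order.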
